A study of Arabidopsis thaliana with 9 samples.

Results

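A set of 94 genes had at least doubled their level in Arabidopsis roots after 6 h of induction of the transcription factor PERIANTHIA (PAN) and were still at least that far above the starting level after 24 h. They were selected on the pooled values of a deposited table of 33201 rows, at 0, 6 and 24 h. A row had to name a single locus, its mean over 0, 6 and 24 h had to be at least 5, and log2(value + 1) had to lie at least 1 above the 0 h value at both 6 h and 24 h. PAN itself was left out. Of the 32919 rows of a single locus, 13056 reached the mean of 5, and the 94 members are drawn from these. With PAN counted, 0.728% of the 13056 genes met both limits. The rise at both times is therefore how the genes were picked and not a result, and all values for these comparisons below are descriptions.

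The 9 samples were roots of Col-0 plants carrying the XVE:PAN transgene, in which PAN follows an estradiol-responsive activator. Seedlings on 1X MS medium with 1% sucrose were moved to plates that also held β-estradiol at 10 uM, where they stayed 0 h, 6 h or 24 h. They grew 5 days in all. The 3 times had 3 biological replicates each, and all 9 samples carried the transgene. No mock-treated plants and no plants without the transgene were among them, so estradiol, the transfer and PAN cannot be told apart. One label calls the tissue whole root and another calls it root dissected about 0.5 cm from the tip.

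PAN belongs to the TGA group of bZIP transcription factors, which bind DNA at sites with a TGACG core. TGA factors are known as partners of NPR1, the salicylate co-receptor, and of CC-type glutaredoxins, and they act on defence and detoxification genes. PAN is known for its roles in flower patterning and in the stem cell niche of the root. In flowers it acts on AGAMOUS, where an AAGAAT box in an intron is linked to its binding.

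The table held 1 FPKM value (a level scaled to transcript length and library size) per gene and time, pooled by the authors over the replicates, so no spread between replicates can be given and the read depth is unknown. The spread between replicates is reflected in one place, the q-values in the authors' deposited table, of which the smallest was 0.000358. PAN, the induced gene, went from an FPKM of 1.03 before induction to 688 (6 h) and 385 (24 h). Of the summed FPKM of all rows, the members made up 0.114% before induction, 0.424% after 6 h and 0.653% after 24 h.

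The TGACG core was present in the proximal promoters of 37 of the 91 members that had a sequence. Of the 10 promoters with more than 1 copy, 6 are shown so that the copies and their spacing can be read. Those of AT5G14470 (4 copies), AT1G19960 (3), AILP1 (2) and AT5G65207 (2) are not shown. Each window runs from 250 bases before to 50 bases after the annotated gene start in RefSeq's TAIR10.1 annotation, on the gene's own strand. Capitals mark TGACG or its reverse complement CGTCA. The windows are chr1:436873-437172 (minus strand) for the NAC factor gene NAC004, chr5:25907997-25908296 (plus strand) for WRKY51, chr3:9470990-9471289 (minus strand) for NIMIN-2, chr3:20910574-20910873 (minus strand) for WRKY70, chr4:8870930-8871229 (minus strand) for PPDK and chr2:12029416-12029715 (plus strand) for ACA2.
NAC004: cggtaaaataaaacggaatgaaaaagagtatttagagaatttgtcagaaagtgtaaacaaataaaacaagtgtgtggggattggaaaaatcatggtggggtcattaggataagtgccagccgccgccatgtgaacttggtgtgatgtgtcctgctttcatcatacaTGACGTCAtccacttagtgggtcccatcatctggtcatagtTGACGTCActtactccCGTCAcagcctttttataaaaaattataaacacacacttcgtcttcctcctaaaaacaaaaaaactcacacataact
WRKY51: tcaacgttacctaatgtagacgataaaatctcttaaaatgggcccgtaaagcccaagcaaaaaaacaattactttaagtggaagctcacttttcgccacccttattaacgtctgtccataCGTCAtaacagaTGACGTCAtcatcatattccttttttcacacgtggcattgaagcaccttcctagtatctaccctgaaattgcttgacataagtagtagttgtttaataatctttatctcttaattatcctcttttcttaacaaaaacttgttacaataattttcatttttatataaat
NIMIN-2: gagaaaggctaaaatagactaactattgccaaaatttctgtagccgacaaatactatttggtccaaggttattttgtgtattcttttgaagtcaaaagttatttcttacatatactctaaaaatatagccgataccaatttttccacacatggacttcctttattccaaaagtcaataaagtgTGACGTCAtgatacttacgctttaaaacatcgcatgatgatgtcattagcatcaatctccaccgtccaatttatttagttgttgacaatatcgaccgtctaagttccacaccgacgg
WRKY70: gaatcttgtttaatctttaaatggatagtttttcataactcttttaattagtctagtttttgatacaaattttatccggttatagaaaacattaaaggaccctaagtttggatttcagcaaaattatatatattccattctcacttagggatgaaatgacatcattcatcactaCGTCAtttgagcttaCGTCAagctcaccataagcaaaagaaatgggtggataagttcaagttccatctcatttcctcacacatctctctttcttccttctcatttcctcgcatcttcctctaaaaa
PPDK: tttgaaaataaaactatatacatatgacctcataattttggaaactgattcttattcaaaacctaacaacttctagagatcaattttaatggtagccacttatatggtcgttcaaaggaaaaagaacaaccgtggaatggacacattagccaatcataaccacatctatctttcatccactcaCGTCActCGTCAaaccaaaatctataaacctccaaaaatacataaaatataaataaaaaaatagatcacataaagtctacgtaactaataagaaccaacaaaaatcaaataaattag
ACA2: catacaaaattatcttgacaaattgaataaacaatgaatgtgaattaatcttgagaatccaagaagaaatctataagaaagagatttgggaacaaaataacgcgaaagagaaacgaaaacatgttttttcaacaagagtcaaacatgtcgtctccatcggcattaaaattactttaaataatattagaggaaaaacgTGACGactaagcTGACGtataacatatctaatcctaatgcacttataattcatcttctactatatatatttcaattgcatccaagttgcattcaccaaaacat

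NAC004 carried 5 copies, 4 of them in 2 palindromes of TGACGTCA, where the core is read on both strands. WRKY51 carried 3 copies and NIMIN-2 carried 2, and each of these promoters held 1 palindrome. In NIMIN-2 both copies lie in that palindrome. In WRKY70 the copies began at positions -76 and -61 from the annotated start. PPDK had its 2 copies at -67 and -60. In ACA2 the copies at -53 and -41 stood in tandem, with the spacing of the as-1 element through which TGA factors were first studied. ACA2 was the single member with that pair in this window (1.10% of 91 promoters). Among the 13014 promoters of genes with a mean of at least 5, the share was 0.138%.

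Matches to TGACG on either strand were found in 40.7% of the 91 member promoters, against 23.9% of 13014 promoters of genes with a mean of at least 5 and 22.6% of all 37897 annotated promoters. Among the 87 genes that had passed a change of 1 at 6 h only, the share was 33.3%. Of the 1250 promoters of genes that had passed it at 24 h only, 24.2% held the core. The shares of the members and of the genes that passed at 6 h only thus both lay above that of the genes at large. The genes that passed at 24 h only lay at the general level. No test was made of these differences.

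The palindrome TGACGTCA, whose matches are also counted under TGACG, was in 5 member promoters (5.49%), against 0.784% of the 13014 promoters. These were NAC004, NIMIN-2, WRKY51, the GHMP kinase gene AT5G14470 and AT1G19960. The AAGAAT box was in 29.7% of member promoters against 32.6% of the 13014. For the G-box CACGTG, a site of many bZIP and bHLH factors, the shares were 3.30% against 8.86%. TATCCA, an element of sugar-repressed promoters in rice, stood at 24.2% against 16.3%. The GCC box GCCGCC, bound by ethylene response factors, was in 3.30% against 2.58%. The WRKY core TTGAC, which overlaps TGACG in the letters TGAC and was added after the other motifs had been counted, was in 59.3% against 52.3%. Each motif was searched on both strands, and a match says only that the letters are in the window.

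**Figure D1:**
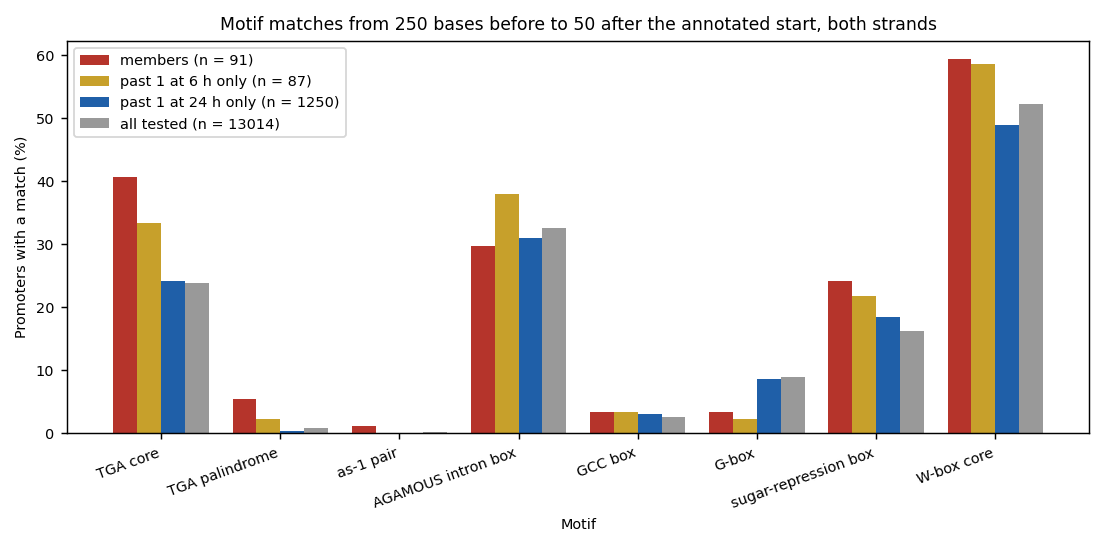
Share of promoters with at least 1 match to each motif (y axis, percent) in the window from 250 bases before to 50 after the annotated start, for members, for genes past a change of 1 at 6 h only or at 24 h only, and for all genes with a mean FPKM of at least 5. The TGA core is in 40.7% of member promoters, 33.3% of those past 1 at 6 h only and 23.9% of all. The AGAMOUS intron box (AAGAAT) is in 29.7% of member promoters and 32.6% of all.

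By kind of member, the TGACG core was in 8 of 9 promoters of glutaredoxin, NIMIN, WRKY and VQ genes, in 8 of 13 of the carbon and nutrient genes and in 7 of 12 of the stress and redox genes. It was in 5 of 10 promoters of other regulators, 2 of 6 of calcium genes, 6 of 22 of genes with other or uncharacterised products, 1 of 12 of wall and surface genes (XTH2), 0 of 4 of J-domain genes and 0 of 3 of non-coding genes. These kinds were assigned gene by gene, not by product name alone, after the values had been seen. The cupin genes AT5G38910 (wall and surface) and AT1G50590 (stress and redox) have the same product name. No difference between the kinds was tested. Members with the core had a median change of 1.54 in log2(value + 1) at 6 h, and members without it 1.58. At 24 h the medians were 1.86 and 2.20. The window reached past the annotated start, and 6 of the 91 members (6.59%) had a copy beginning there, against 5.46% of the 13014. AT3G56880, with its copy at position 23, was among the 8 glutaredoxin, NIMIN, WRKY and VQ genes with the core. AT2G22880, also among those 8, had its copy at -4. The last letter of that copy is the first base of its annotated transcript of 345 bp, which opens with ATG. Its annotated start may thus be that of the coding sequence, in which case the window is not placed on the start of transcription.

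At a q-value limit of 0.05 in the authors' deposited table, 77 of the 94 members were called higher at both times, against 1.91% of the 13056 genes. As the rule used these contrasts, nothing follows from that gap. Of the 77 genes, 62 had the smallest q-value at both times. The other 17 members did not pass at both times, and they are treated at the end. The members' median FPKM was 4.58 before induction, 17.9 after 6 h and 23.8 after 24 h. Their changes in log2(value + 1) ran from 1.01 to 4.64 at 6 h and from 1.00 to 6.05 at 24 h, with medians of 1.55 and 1.99. Over all 13056 genes, 1.39% had a change of at least 1 at 6 h and 10.4% at 24 h.

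**Figure D2:**
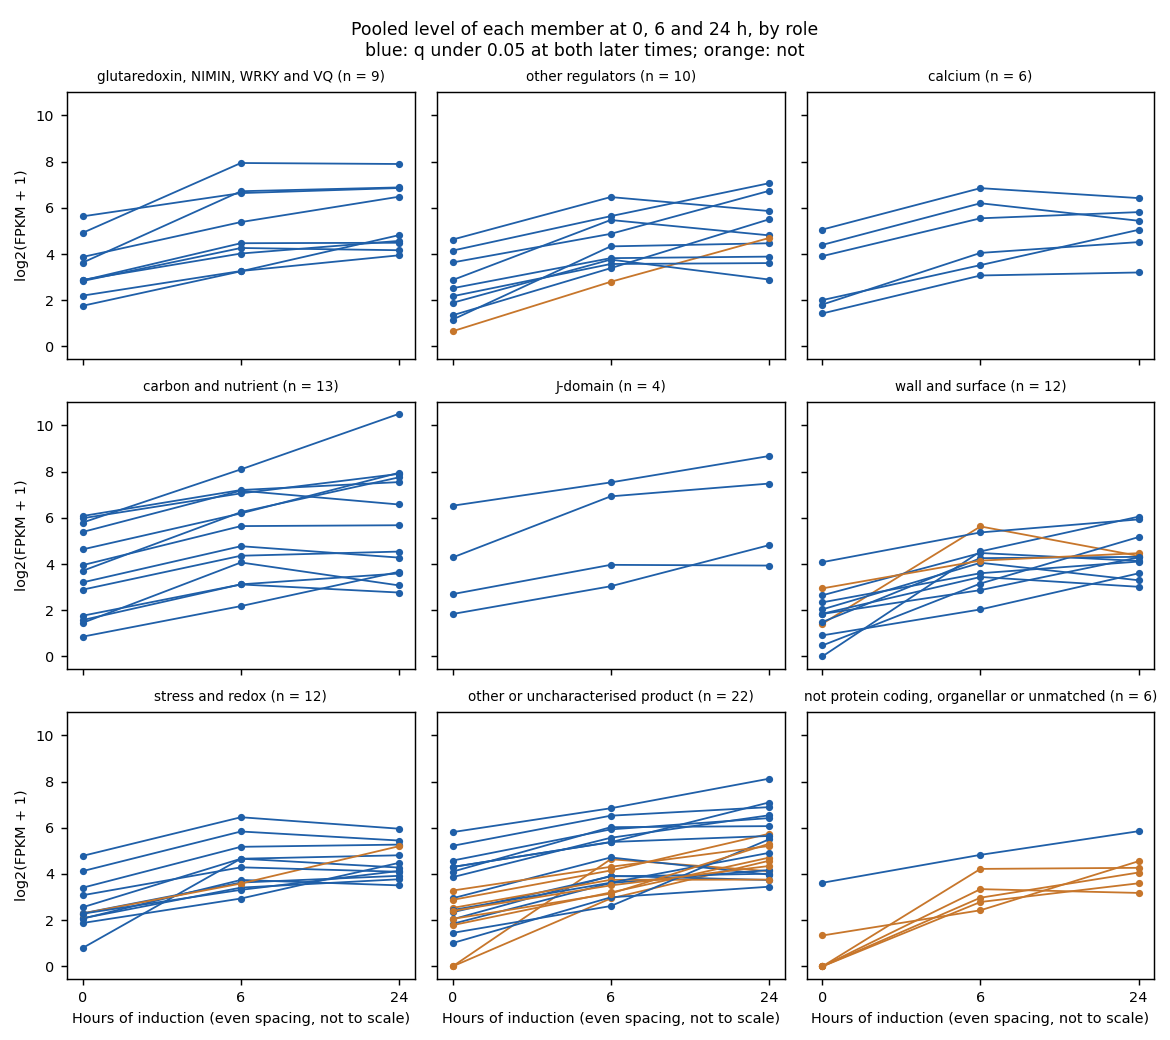
Pooled level of each member, as log2(FPKM + 1), at 0, 6 and 24 h of induction, in panels by kind of product. Each line is 1 gene, blue where the authors' q-value is under 0.05 at both later times (77 genes) and orange where it is not (17 genes). The wall and surface genes start low, and 5 of the 6 loci in the panel of non-coding, organellar or unmatched loci are orange.

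CC-type glutaredoxins are small proteins that bind TGA factors, and 2 of them were members. GRXS13 (AT1G03850) had an FPKM of 29.2, 244 and 237 in order of time, a change of 3.02 in log2(value + 1) at 6 h and 2.98 at 24 h. GRX480 (AT1G28480), also named ROXY19 and known to be induced by salicylate, had 13.7, 40.7 and 88.3. GRXS13 was not called between 6 and 24 h, whereas GRX480 rose by 1.10 (q = 0.000358, authors' deposited table). Once the running median of all genes by transcript length was subtracted (the length trend), this rise was 0.44. Each had 1 TGACG core, at position -237 in GRXS13 and at -211 in GRX480.

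NIMIN-2 (AT3G25882), which encodes a protein that binds NPR1, had values of 6.25, 21.1 and 21.4, so its level at 24 h equalled that at 6 h to within 0.02 on the log2(value + 1) scale. WRKY factors bind W-boxes in defence promoters, and 4 of them were members. WRKY70 (AT3G56400), known as a switch between salicylate and jasmonate responses, had 6.12, 18.2 and 16.9. WRKY38 (AT5G22570), a known repressor of basal defence, had 2.39, 8.53 and 27.2, and it rose by 1.56 from 6 to 24 h (q = 0.000358, authors' deposited table). WRKY51 (AT5G64810) had 6.37, 15.2 and 22.7 and was not called between 6 and 24 h (q = 0.0529, authors' deposited table). WRKY22 (AT4G01250), which acts in immune signalling through MAP kinases, had 3.59, 8.60 and 14.4. WRKY38 was the single gene of this group without a TGACG core in its window, and WRKY70 the single WRKY gene that did not stand higher at 24 h than at 6 h.

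VQ proteins are small partners of WRKY factors. The VQ gene AT2G22880 had values of 11.4, 104 and 117, a change of 3.09 at 6 h, and AT3G56880 had 48.5, 98.5 and 115, a change of 1.01 that left it just above the limit of the rule. The longest transcript of AT2G22880 lies wholly within that of AT2G22870 on the other strand, which had 3.62, 5.90 and 9.98. Reads of such overlapping genes are told apart only by strand. The libraries were strand-specific per the labels, but whether counting used the strand is not given in the sources used here.

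Among the other regulators, 3 transcription factor genes were highest at 6 h. NAC004 (AT1G02230) had an FPKM of 6.32, then 43.4, then 27.0. HB-7 (AT2G46680), a homeodomain-leucine zipper gene known to respond to abscisic acid and drought, had 2.70, 12.5 and 6.44. CEJ1 (AT3G50260), a DREB-type AP2 gene also named DEAR1, had 23.7, 87.3 and 57.1. All 3 fell from 6 to 24 h, by 0.66, 0.86 and 0.60 on the log2(value + 1) scale, and the authors' deposited table gave q-values of 0.00246, 0.00246 and 0.00441. With the length trend removed, the change of CEJ1 after 6 h was -1.08, and its change at 24 h against 0 h was 0.80 in place of 1.24. That of HB-7 at 24 h was then 0.85 in place of 1.01, so that both lay under the limit of the rule.

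A second set of regulators went on rising. ATCTH (AT2G25900), a tandem CCCH zinc finger gene, had 1.54, 9.46 and 44.2, a further rise of 2.11 after 6 h. BT2 (AT3G48360), a BTB-TAZ scaffold protein gene that responds to sugar and nitrate, had 11.4, 28.3 and 105. The RING finger gene AT5G22920 had 16.7, 48.8 and 133. For each of these late rises, q was 0.000358 in the authors' deposited table. AT1G19960, annotated in RefSeq as a transcription factor, had 0.576, 5.94 and 24.8 but was called at neither time against 0 h. Its q-values there, from the authors' deposited table, were 0.116 and 0.110. The protein phosphatase 2C gene AT4G32950 had 1.23, 19.1 and 21.1 and the cyclin-dependent kinase inhibitor gene KRP6 had 4.73, 13.1 and 13.8. Neither of these was called between 6 and 24 h.

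Calcium signals are read by EF-hand proteins and calmodulin partners, and 6 members belong here. TCH3 (AT2G41100), a calmodulin-like gene induced by touch, had 14.0, 45.7 and 55.2. PBP1 (AT5G54490), whose product binds calcium and the kinase PINOID, had 32.3, 114 and 84.6. CAMBP25 had 2.51, 15.5 and 21.9, and IQD26 had 1.69, 7.40 and 8.19, both encoding calmodulin-binding proteins. These 4 genes were not called between 6 and 24 h. The EF-hand gene AT1G29020 fell by 0.76 after 6 h, with 20.03, 72.3 and 42.4, while the calcium uniporter family gene AT5G66650 rose further, with 3.01, 10.5 and 32.0.

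Several carbon and nutrient genes, among them genes linked to low sugar and dormancy, rose on after 6 h. AT3G15450, whose product carries YGL and LRDR motifs, had 54.6, 273 and 1448, the highest level of any member at 24 h, and its relative AILP1 had 1.98, 7.69 and 11.04. DYL1 (AT1G28330), a dormancy-associated gene, had 23.8, 72.0 and 246. GAT1_2.1 (AT1G15040), a glutamine amidotransferase-like gene, had 12.1, 74.9 and 214. AT3G15450, DYL1 and GAT1_2.1 each rose by at least 1.5 on the log2(value + 1) scale again after 6 h. AILP1 was not called for that step. Of all 100 bp stretches of the GAT1_2.1 transcript, 37.0% also lay in transcripts of genes on the other strand. Of these genes, AT1G15030 stayed between 13.5 and 15.3.

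DIN10 (AT5G20250), a dark-inducible raffinose synthase family gene, had 62.2, 132 and 238. MIOX2 (AT2G19800), whose product oxidises myo-inositol, had 66.6, 146 and 186 and was not called after 6 h. The GHMP kinase family gene AT5G14470 had 0.810, 3.52 and 11.7. The highest value was at 6 h in 4 enzyme genes of this kind. PPDK (AT4G15530), the interconversion enzyme of pyruvate and phosphoenolpyruvate, had 1.74, 15.7 and 7.42. ICL (AT3G21720), isocitrate lyase of the glyoxylate cycle, had 8.22, 26.3 and 18.4. NAS2 (AT5G56080), which makes the metal chelator nicotianamine, had 40.9, 143 and 94.4. HCD1, a 3-hydroxyacyl-CoA dehydratase gene, had 2.39, 7.66 and 5.80 and was not called after 6 h. After 6 h PPDK, ICL and NAS2 fell by 0.99, 0.49 and 0.60, for which the authors' deposited table gave q-values of 0.000358, 0.0232 and 0.00758. With the length trend removed, the change of PPDK was -0.55. ACA2, an alpha carbonic anhydrase gene, had 6.42, 19.5 and 22.2 and was not called after 6 h.

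J-domain proteins are co-chaperones of Hsp70, and 4 small ones were members. J11 (AT4G36040) had 18.4, 121 and 178, the strongest early change of the 4. AT2G17880 had 2.57, 7.21 and 27.1 and J8 (AT1G80920) had 90.9, 184 and 407. Of all 100 bp stretches of the J8 transcript, 13.6% also lay in that of AT1G80910 on the other strand. AT1G72416 differed from J11, AT2G17880 and J8, with 14.6 at 6 h and 14.3 at 24 h after 5.48 at 0 h.

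Among wall and surface genes the starting levels were low. For the cupin gene AT5G38910 the table listed 0 before induction, then 22.3 and 65.2. XTH2 (AT4G13090), a xyloglucan endotransglucosylase/hydrolase gene, had 1.81, 18.1 and 18.8. EXPA12 (AT3G15370), an expansin gene, had 3.10, 15.6 and 8.82. EARLI1 (AT4G12480), a lipid-transfer-like gene, had 0.389, 7.91 and 34.9. Of these wall-loosening and surface genes, EXPA12 fell after 6 h by 0.76 and EARLI1 rose by 2.01. The hydroxyproline-rich genes PELPK1 (5.26, 21.3 and 16.5), AT4G38080 (15.9, 40.3 and 60.0) and AT2G22510 (4.06, 11.1 and 16.2) were also members. KCS10 (AT2G26250), also named FIDDLEHEAD and needed for very long chain lipids of the shoot surface, had 2.60, 9.84 and 7.08. The GDSL lipase gene AT2G23540 had 0.879, 3.09 and 11.1, which placed it closest to the minimum mean, at 5.02.

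Stress and redox genes made up a further 12 members. The second cupin gene, AT1G50590, had 0.742, 24.3 and 18.4. The GSTL1 gene, encoding a lambda glutathione transferase, had 3.20, 12.4 and 10.4. BCS1 (AT3G50930), encoding the outer mitochondrial membrane protein OM66, had 7.47, 18.5 and 16.1. KIN1 (AT5G15960), a cold and abscisic acid responsive gene, had 16.5, 56.3 and 42.7. None of these 4 genes was called between 6 and 24 h. The thioredoxin-dependent peroxidase gene TPX2 had 3.89, 11.03 and 35.8 but no call in any comparison by the authors' q-values.

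Some members were neighbours in the genome. Counting each member with the next one along its chromosome, 7 such consecutive pairs, formed by 12 members, had at most 2 other annotated genes between them. The same count was not made for other sets of genes, so it cannot be said whether this is many. A row of 3 GRAM domain genes stands side by side on chromosome 5: AT5G23350 (7858545 to 7859201), AT5G23360 (7861737 to 7862746) and AT5G23370 (7863216 to 7864291, TAIR10.1). Their values were 4.91, 24.3 and 27.0, then 3.87, 8.95 and 16.5, then 3.24, 9.63 and 12.7. The adjacent gene AT5G23380 had 3.45, 6.93 and 9.48 and passed a change of 1 at 24 h only. WRKY38 lies beside AT5G22580, a stress-responsive A/B barrel gene with 2.68, 6.66 and 21.4, and 1 gene away from AT5G22555, with 1.01, 6.94 and 9.91.

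On chromosome 1, the berberine bridge enzyme-like genes AT1G30720 (10897925 to 10899975) and AT1G30730 (10900681 to 10902626) follow each other. AT1G30720 had 9.61, 35.2 and 37.7 and AT1G30730 had 26.6, 86.8 and 61.3. Their family neighbour AT1G30700, with 80.7, 225 and 126, passed the limit at 6 h only, and AT1G30710 stayed at or under 0.0197.

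The step from 6 to 24 h was not itself part of the rule, although both values entered it. In the authors' deposited table, by q-value, 31 of the 94 members were higher at 24 h than at 6 h, 11 were lower and 52 were not called. Over the 13056 genes, 20.9% were called higher and 22.8% lower, against 33.0% and 11.7% of the members. The rule required a high level at 24 h and so disfavoured genes that fell. In 69 members the 24 h value lay above the 6 h value, and in 30 of them by at least 1, a step that 7.15% of the 13056 genes made. A missing call does not show that a level held steady.

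The largest late rises were those of AT3G19200 (1.73, 5.12 and 44.1), AT3G15450, AT5G24490, ATCG00300, ATCTH and EARLI1, whose 24 h values lay 2.88, 2.40, 2.15, 2.12, 2.11 and 2.01 above those at 6 h. That of ATCG00300 was not called, and the other 5 were. AT5G24490, annotated in RefSeq as a 30S ribosomal protein, had 3.16, 7.89 and 38.5 and was not called at 6 h. The largest late falls were those of LCR37, PPDK, HB-7, AT1G29020, EXPA12 and AT4G36610, by 1.28, 0.99, 0.86, 0.76, 0.76 and 0.74. AT4G36610, an alpha/beta hydrolase gene, had 6.72, 25.3 and 14.7. LCR37, a defensin-like gene, had 1.67, 48.4 and 19.4 and was not called against 0 h at either time.

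**Figure D3:**
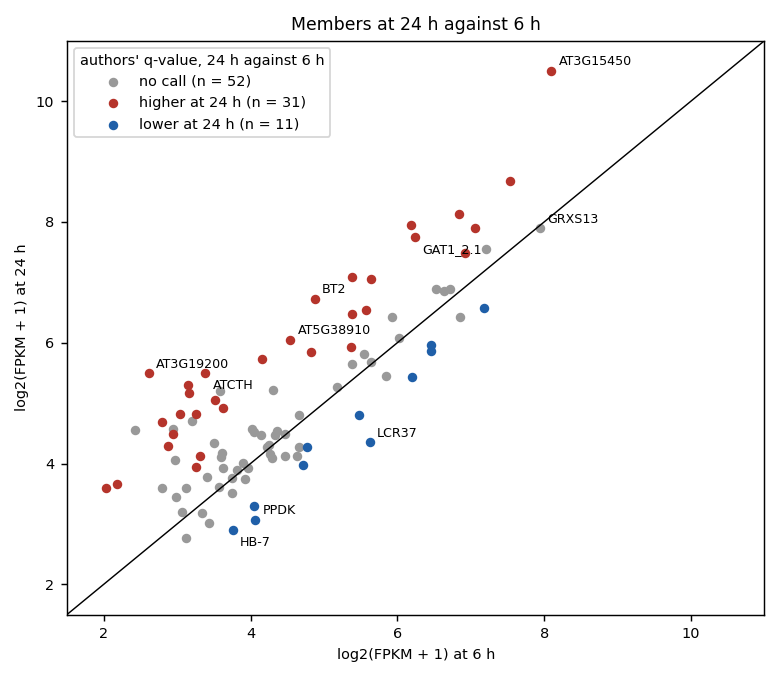
Level of each of the 94 members at 24 h (y axis) against 6 h (x axis), both as log2(FPKM + 1), with the line of equal levels. Red points were called higher at 24 h (31), blue points lower (11) and grey points were not called (52) by the authors' q-values, and AT3G15450 stands highest at 24 h.

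Features that the rule did not use were counted for the members and for other sets of genes. The members' longest spliced transcript had a median of 1235 bp, against 1702 bp over the 13014 genes with a length. The genes that passed a change of 1 at 24 h only were shorter, with 1023.5 bp, and those that passed it at 6 h only had 1481 bp. A single exon was annotated in 36 of 91 members (39.6%), against 14.4% of all genes, 24.1% of the genes that passed at 6 h only and 19.4% of those that passed at 24 h only. Chromosome 5 held 27 members (28.7%), against 23.8% of all 13056 genes, and chromosome 3 held 13 members (13.8%), against 19.98%. No test was made of any of these differences.

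Transcript length moved with the change at 24 h over all genes. The running median of all genes was read at each member's own length. Its median over the members was 0.024 on the log2(value + 1) scale for the first 6 h. For the whole 24 h it was 0.26, and for the step from 6 to 24 h 0.29. With the trend removed, 77 of the 94 members still met the rule.

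**Figure D4:**
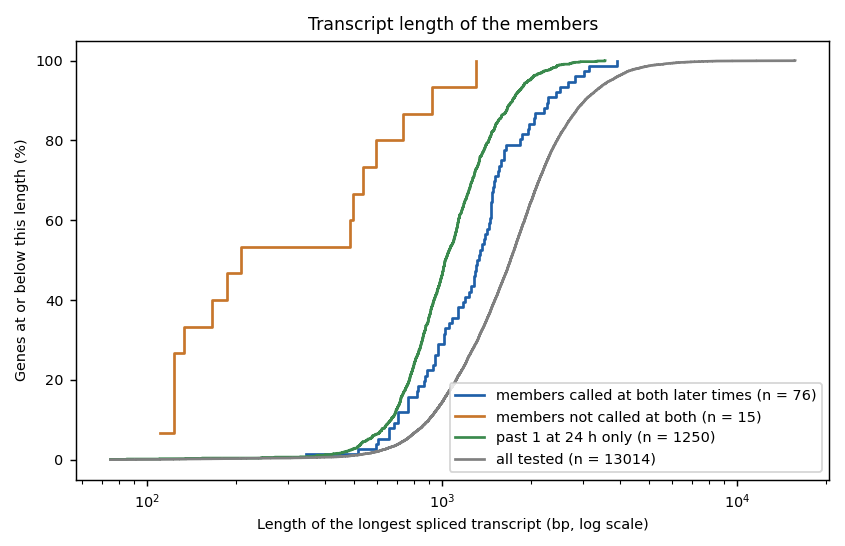
Cumulative share of genes (y axis, percent) by length of the longest spliced transcript (x axis, log scale), for 76 members called at both times, 15 members not called at both, 1250 genes past a change of 1 at 24 h only and 13014 genes with a mean FPKM of at least 5. The members not called at both times are shortest, with a median of 207 bp.

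The 17 members without a call at both times were mostly short. Their median transcript length was 207 bp, against 1316 bp in the 76 called members with a length, and 10 of the 15 with a length were under 500 bp. Only AT5G24490 of the 17 was called at 1 of the times. Among them were the small RNA genes AT1G74453 (listed at 0, then 17.6 and 18.3), SNOR77 (listed at 0, then 9.16 and 8.07) and MIR775 (listed at 0, then 5.91 and 11.1). The organellar loci ATMG01380 (listed at 0, then 6.86 and 15.7) and ATCG00300 (1.53, 4.39 and 22.5) belonged here too. AT4G37095 was listed at 0 and had 23.9 and 16.4, with q-values of 0.0547 and 1 in the authors' deposited table, and AT4G31441 was listed at 0 and had 6.68 and 22.8. A listed 0 may stand for an estimate that failed. The short gene AT5G04790 (2.44, 8.19 and 25.1) lies wholly within AT5G04800 on the other strand, whose FPKM was 238, 266 and 563.

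Near the limits of the rule, the genes just inside and just outside had nearly the same values. At 6 h the changes nearest to 1 were 1.01 in AT3G56880, 1.01 in J8 and 1.03 in AT4G26055, against 0.99 in AT3G15630 and AT1G22810 and 0.96 in AT1G31760. At 24 h they were 1.00 in HCD1, 1.01 in HB-7 and 1.02 in BCS1, against 0.99 in the urea transporter gene DUR3, 0.96 in AT2G39400 and 0.94 in AT4G15260. By the mean, AT2G23540, HCD1 and AT5G14470 lay just inside, at 5.02, 5.28 and 5.34, and EXPA16, AT1G03700 and AT5G52750 just outside, at 4.75, 4.60 and 4.59.

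Lists of response genes were set beside the members, and the counts cover the genes of each list that reached the mean of 5. Of 16 such xenobiotic detoxification genes, from a list of 20, a set that TGA factors are known to act on, GRX480 was the single member. By the authors' q-values, 3 of the 16 were higher after 6 h (5 lower), and after 24 h 1 was higher (14 lower), with list medians of -0.03 and -1.32 in log2(value + 1). GSTU25, a tau glutathione transferase gene, had 1489, 892 and 191, and OPR1, an oxophytodienoate reductase gene, had 854, 964 and 382. GRX480 thus stood apart from the direction of the other called genes of this list at 24 h.

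Of 10 sugar starvation genes, from a list of 14, 3 were members (BT2, DIN10 and MIOX2). After 6 h 4 were called higher (1 lower), and after 24 h 8 were higher (1 lower). DRM2, a dormancy-associated relative of DYL1 on this list, had 22.1, 29.0 and 210. DIN6, an asparagine synthetase gene, had 5.23, 2.50 and 12.8, a fall at 6 h before a rise. The list's medians were 0.33 at 6 h and 1.28 at 24 h, against -0.00024 and -0.02 over all 13056 genes.

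Of 4 abscisic acid genes, from a list of 8, KIN1 was a member and the other 3 (RD29A, COR47 and ABI1) were called lower at 24 h. The 5 jasmonate genes, from a list of 9, held no member, with 1 called lower at 6 h and 5 called higher at 24 h. The 4 suberin genes, from a list of 9, held none either, although 3 were called higher at 6 h, and none was called at 24 h. Under the mean of 5, the suberin genes GPAT5 (0.614, 3.19 and 1.53), FAR4 (0.540, 2.64 and 1.47) and CYP86A1 (0.648, 1.06 and 7.41) were called higher at 24 h. ABCG6, a suberin exporter gene, had 2.28, 9.39 and 3.48 and shows a return that the rule leaves out. The 3 low oxygen genes, from a list of 11, held no member, and all 3 were called lower at 24 h and none at 6 h. HRE1, a low oxygen gene just under the mean, had 2.66, 2.47 and 8.89 and was called higher at 24 h. The genes under the mean were named after their values were seen. At a limit of 0.05, the background of calls among the 13056 genes was 3.82% (higher) and 8.31% (lower) for the first 6 h, then 24.3% and 27.9% for the whole 24 h.

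Marker genes of root tissues changed over the same times, and their part in the members' levels was not tested. In pooled roots, fewer cells of a type and less RNA per cell cannot be told apart. Root hair markers, 6 of 6 of which reached the mean, were all called lower at 24 h, 3 of them also at 6 h. Their summed FPKM was 1911, 1428 and 1039. Root cap markers were called lower at 24 h in 3 of 3 genes and in none at 6 h, with sums of 94.3, 89.0 and 37.6. Cell cycle markers were called higher at 24 h in 5 of 5 genes and at 6 h in 1. All 6 genes of that list summed to 52.7, 65.4 and 100.4. Endodermis markers summed to 1305, 1011 and 928, with 1 of 4 called lower at 24 h and none called at 6 h. Vascular markers summed to 21.4, 20.9 and 26.2, over 4 genes, of which 1 reached the mean and was not called. Shoot photosynthesis markers, 4 of 5 of which reached the mean, summed to 39.0, 32.9 and 89.2 over all 5, with 3 of the 4 called higher at 24 h and none at 6 h. None of these markers was at 0 at all times, and none was a member.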

How the data were processed

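RNA of the 9 root samples was sequenced as strand-specific poly(A) libraries with 100 bp single-end reads, per the labels' protocols. TopHat2 2.0.13, Cufflinks 2.1.1, Cuffdiff and the build TAIR10 are named in the submitters' processing notes. The annotation and the counting options are not given in the sources used here. The deposited values were taken as FPKM, 1 per gene and time, pooled by the authors. The log2 fold change and the q-value of each comparison are the authors' deposited values, per the file headers. The 282 rows joining several loci were left out.

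Changes are differences of log2(value + 1), and the pseudocount understates the change of low genes. Calls are deposited q-values under 0.05. Members, kinds and lists were chosen with earlier results of these data known. Named genes were the 10 largest changes at 6 h and at 24 h, the 6 largest rises and falls after 6 h, transcription factors, list members, product classes of at least 3 and genes at the limits of the rule; others named were chosen after their values were seen. Names, lengths and promoters came from RefSeq's TAIR10.1, which matched 91 of 94 members. Python 3.11.15, pandas 2.3.3 and NumPy 2.4.6 were used, and the calculations were tested on simulated data. Because no value per replicate was given, no fit across replicates was made.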

Additional observations from a re-analysis of the deposited data

How the results depend on the processing

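No paired analysis was possible because replicates were pooled before deposit. Fits without single replicates were not run either. The count of 94 members stayed between 70 and 134 under 9 of 10 other settings and was 38 with a minimum change of 1.5. Of the 94 genes, 87 remained under quantile normalization and 86 under median-of-ratios scaling. The 31 members higher and 11 lower after 6 h became 25 and 1 with a minimum change of 1, and all 42 signs were kept under both scalings and with the length trend removed. With a pseudocount of 0.1 the medians of the members were 1.74 at 6 h and 2.19 at 24 h. The median from 6 to 24 h, 0.37, was 0.15 with the length trend removed. Of 135 changes of named genes, that setting moved 80 by more than 0.1, a pseudocount of 0.1 moved 65, quantile normalization 14 and median-of-ratios scaling 0. KIN1 at 24 h against 0 h went from 1.32 to 0.70 with the length trend removed. On the plus strand alone, TGACG was in 20.9% of member promoters (12.5% of all), GCCGCC in 1.10% (1.35%, so that members lay below all genes) and TATCCA in 13.2% (9.17%). In the 1000 bases before the start, a window added after the data were seen, the shares were 70.3% for TGACG (55.4% of all), 80.2% for AAGAAT (73.5%), 10.99% for CACGTG (16.1%) and 45.1% for TATCCA (44.0%). In that window TGACG was also in 67.8% of the genes that had passed a change of 1 at 6 h only. Among members of at least 500 bp, also added later, TGACG was in 43.8% (23.9% of all genes of that length). The read depth is unknown, so no limit of detection can be given for low values.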
